A study of Mus musculus with 16 samples.

Results

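The 7 genes described here, *Pou5f1*, *Nanog*, *Sox2*, *Klf4*, *Dppa3*, *Utf1* and *Lin28a*, were chosen by name as pluripotency genes, out of 21883 protein-coding genes in the gene table. Each was given a window from 20 kb before to 20 kb after its outer gene bounds, 41.3 to 55.9 kb in all, and every ATAC-seq peak overlapping a window was assigned to that gene. ATAC-seq marks open chromatin, since a transposase inserts sequencing adapters where DNA is accessible. Joining peaks of different lists that overlapped by at least 1 bp gave 39 accessible regions in the 7 windows, out of 107032 in the genome.

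The cells were gonocytes, germ cells of the testis around birth. All came from Mvh-Venus transgenic mice, in which a fluorescent reporter marks germ cells, and were *Morc1* (+/-) (heterozygous) or *Morc1* (-/-) (knockout) at the embryonic stages E13.5 and E16.5, on the day of birth (P0) or at postnatal day 3 (P3). There were 16 samples, 2 in each of 8 groups, and no group carried 2 intact *Morc1* alleles. The study asked how loss of *Morc1*, a transposon-silencing gene of male germ cells, affects gonocyte chromatin. The authors deposited 1 peak list per group, with positions only, and the 2 P0 lists were identical to each other, as were the 2 P3 lists. The 6 distinct lists held 40448 peaks (E13.5 heterozygous), 39559 (E13.5 knockout), 53687 (E16.5 heterozygous), 57117 (E16.5 knockout), 67258 (P0) and 44760 (P3). The genotype that the P0 and P3 lists stand for is unknown, so a comparison of an E16.5 list with P0 may set 1 genotype against the other. The reads behind the lists are unknown. Without a list per sample no difference below could be set against the spread between replicates, and none has a test. A peak missing from a list may lie below the authors' threshold, and in these bulk samples fewer cells with an open site cannot be told apart from less opening per cell.

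The pluripotency network keeps early embryonic cells able to form every tissue. POU5F1 (OCT4), SOX2 and NANOG are its core transcription factors and bind many of the same enhancers, their own included; KLF4 joins them in the naive state, UTF1 is a chromatin-bound cofactor, DPPA3 (Stella) protects DNA methylation in the early embryo and marks germ cell precursors, and LIN28A is an RNA-binding protein that blocks the let-7 microRNAs. Primordial germ cells express much of this network. In the male it is switched off after sex determination, as the cells stop dividing and turn into arrested gonocytes, and *Lin28a* and *Utf1* are known from undifferentiated spermatogonia after birth.

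At 5 of the 7 genes the peak at the gene start was present in some lists and absent from others. RefSeq promoter sequence (GRCm38.p6) matched 6 of the 7 genes, *Dppa3* being the exception. The 250 bases before the start are shown for the 4 matched genes whose start peak varied, because these are the stretches that the peaks covered or left out. Each reads 5′ to 3′ on the gene's own strand and ends at the base before the start. Capitals mark matches, on either strand, to the motifs given after the sequences. The *Pou5f1* stretch is chr17:35505782-35506031 (+), that of *Nanog* chr6:122707239-122707488 (+), that of *Utf1* chr7:139943606-139943855 (+) and that of *Lin28a* chr4:134018817-134019066 (-).
Pou5f1: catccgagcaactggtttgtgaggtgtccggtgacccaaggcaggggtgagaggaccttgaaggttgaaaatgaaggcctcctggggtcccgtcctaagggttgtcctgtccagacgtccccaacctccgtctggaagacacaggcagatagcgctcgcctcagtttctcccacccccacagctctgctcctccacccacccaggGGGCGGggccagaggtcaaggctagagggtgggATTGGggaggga
Nanog: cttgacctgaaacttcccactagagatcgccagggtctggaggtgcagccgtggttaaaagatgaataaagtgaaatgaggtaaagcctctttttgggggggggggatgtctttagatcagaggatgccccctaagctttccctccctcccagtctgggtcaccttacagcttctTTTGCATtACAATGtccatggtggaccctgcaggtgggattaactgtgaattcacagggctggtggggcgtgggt
Utf1: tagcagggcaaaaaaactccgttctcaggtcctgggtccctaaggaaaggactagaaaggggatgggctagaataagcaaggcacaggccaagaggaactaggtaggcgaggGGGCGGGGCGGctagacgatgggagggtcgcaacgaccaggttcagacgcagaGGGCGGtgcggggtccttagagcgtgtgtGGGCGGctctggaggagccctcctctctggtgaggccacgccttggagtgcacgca
Lin28a: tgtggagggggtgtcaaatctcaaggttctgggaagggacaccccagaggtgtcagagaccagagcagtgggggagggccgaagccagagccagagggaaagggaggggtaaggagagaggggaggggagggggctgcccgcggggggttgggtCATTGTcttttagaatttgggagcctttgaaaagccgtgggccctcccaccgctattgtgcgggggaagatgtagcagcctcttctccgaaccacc

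The motifs searched were the octamer ATGCAAAT and its core ATGCAAA, bound by POU5F1; ACAAAG and ACAATG, bound by SOX factors; the GC box GGGCGG and GGGTGTG, bound by SP and KLF factors; TTTCCCGC, bound by E2F factors; and CCAAT, bound by NFY. The core ATGCAAA lies within the octamer and was added after the sequences had been read. *Nanog* held the octamer core as TTTGCAT, 75 to 69 bases before the start, followed after 1 intervening base by ACAATG, 67 to 62 bases before the start. Of 21262 protein-coding promoter stretches of this length, 3.86% held ATGCAAA and 9.35% held ACAATG. *Pou5f1* held 1 GC box (45 to 40 bases before the start) and 1 CCAAT box on the other strand (12 to 8 bases). *Utf1* held 4 GC boxes, of which a pair overlapped by 1 base, and *Lin28a* held 1 ACAATG on the other strand. GC boxes were found in 42.6% and CCAAT in 35.4% of all stretches. Of the 2 genes whose start peak stood in all 6 lists, *Sox2* also held the core ATGCAAA (99 to 93 bases before the start) and 1 ACAAAG (206 to 201 bases; 14.9% of all stretches), with 2 GC boxes and 1 CCAAT box, and *Klf4* held 4 GC boxes. The full octamer (1.58% of all stretches), GGGTGTG (7.08%) and TTTCCCGC (1.19%) were found in none of these 6. A match is a description of the letters only.

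Accessibility at the gene start followed 6 different patterns. A gene was counted as having a start peak when a peak overlapped 1000 bp on each side of an annotated start, or, for *Dppa3*, of an outer end of the gene. By this measure the E13.5 lists showed a start peak at 6 of the 7 genes (heterozygous) and at 5 (knockout), the E16.5 lists at 4 and 5, the P0 list at 5 and the P3 list at 2. Of 17491 protein-coding genes with an annotated start, 60.5%, 60.9%, 61.5%, 62.3%, 63.8% and 60% had one in the same lists. Over those genes 55% had a start peak in all 6 lists and 12.8% in some but not all, whereas 2 of the 7 pluripotency genes were of the first kind and 5 of the second.

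**Figure D1:**
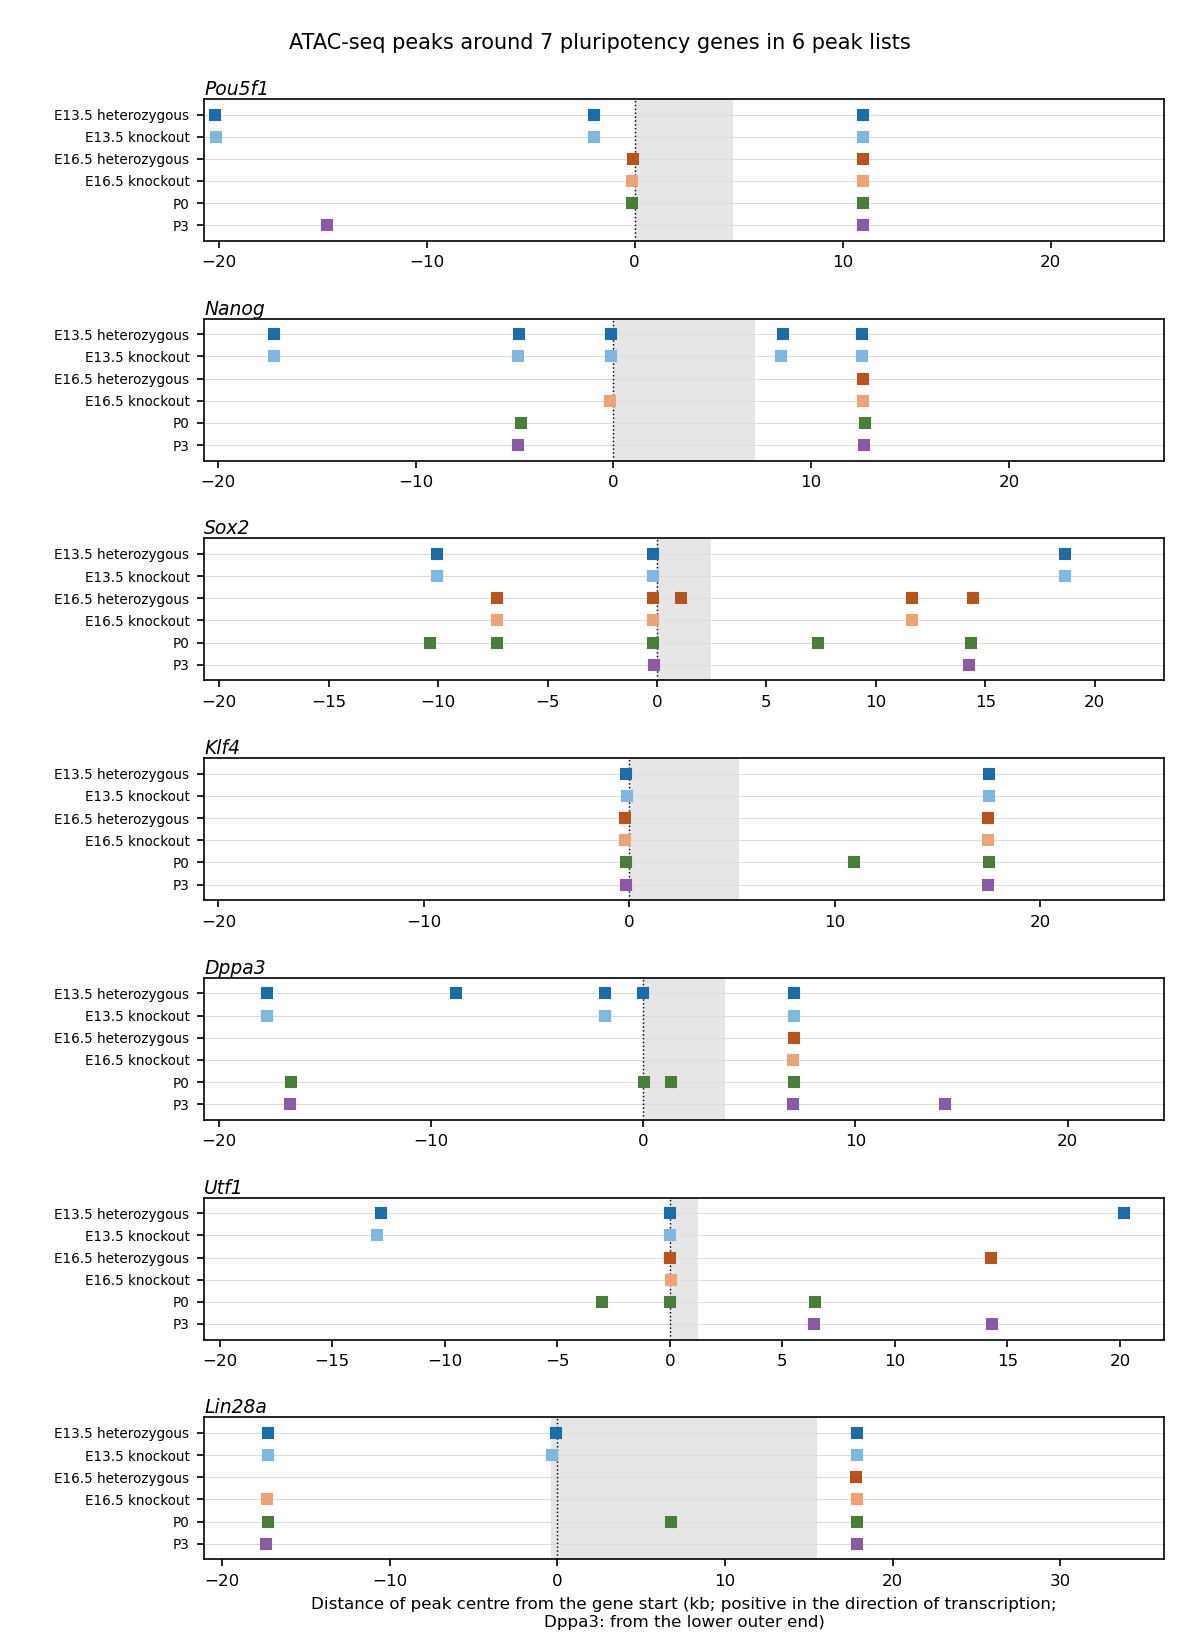
Peaks of the 6 lists in the windows of the 7 genes. Each square is 1 peak, placed by the distance of its centre from the gene start in kb (from the lower outer end for Dppa3); grey marks the gene bounds, the dotted line the start, and rows are the lists. The E13.5 rows share squares upstream of Pou5f1, Nanog, Dppa3 and Utf1 that are missing from every later row, whereas Klf4 has the same 2 squares in all 6 rows and 1 more at P0.

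*Pou5f1* (gene ID 18999, chromosome 17, 35506032 to 35510777) had no start peak at E13.5 and had one in the E16.5 and P0 lists. Both E13.5 lists held a peak centred 1.94 kb before the start, at 35503841 to 35504341 in heterozygous and 35503844 to 35504344 in knockout cells, and no later list held it. The start peak lay at 35505708 to 35506208 (E16.5 heterozygous), 35505655 to 35506155 (E16.5 knockout) and 35505633 to 35506133 (P0). The printed *Pou5f1* stretch thus had 0 of its 250 bases in a peak at E13.5, all 250 at E16.5 and P0, and 0 at P3. As background, *Pou5f1* has a distal enhancer upstream of its promoter that is used in naive pluripotent and germ cells; whether the upstream peak covers it was not examined, as no enhancer annotation was used. A further E13.5 peak lay 20.2 kb before the start, and a P3 peak 14.8 kb before it. The peak 11 kb after the start, in all 6 lists, lay at the starts of the neighbouring genes *Tcf19* and *Cchcr1*. The *Pou5f1* start also lies within 1000 bp of the start of a non-coding RNA, *Gm32362*, and ATAC-seq has no strand. With a start window of 2000 bp the upstream peak counts as a start peak, and *Pou5f1* then has one in every list except P3.

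*Nanog* (gene ID 71950, chromosome 6, 122707489 to 122714633) had 5 peaks in each E13.5 list, 1 in E16.5 heterozygous cells and 2 in each of the other lists. Its start peak was held by both E13.5 lists, at 122707116 to 122707616 (heterozygous) and 122707099 to 122707599 (knockout), and by the E16.5 knockout list, at 122707046 to 122707546. In the E16.5 heterozygous, P0 and P3 lists all 250 bases of the printed *Nanog* stretch, the ATGCAAA and ACAATG matches included, lay outside peaks. The peaks 17.2 kb before and 8.53 kb after the start were held by both E13.5 lists and by no later one. A peak 4.76 kb before the start was held at E13.5, absent from both E16.5 lists and held again at P0 (122702559 to 122703059) and P3 (122702421 to 122702921). Only the peak 12.6 kb after the start stood in all 6 lists. Of all protein-coding gene windows, 89.6% had fewer than the 5 peaks of *Nanog* in the E13.5 heterozygous list, and 15.7% had fewer than its 1 peak in the E16.5 heterozygous list.

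*Sox2* (gene ID 20674, chromosome 3, 34649995 to 34652461) kept its start peak in all 6 lists, with starts between 34649555 and 34649611. The regions around it changed: 8 regions lay in the window, and 1 of them, the start, was in every list. A peak 18.6 kb after the start was held by both E13.5 lists only. Another 10.2 kb before the start was held by both E13.5 lists (34639708 to 34640208 in heterozygous cells) and overlapped a P0 peak (34639357 to 34639857) by 150 bp. Peaks 7.3 kb before the start (both E16.5 lists and P0) and 11.6 kb after it (both E16.5 lists) were absent at E13.5, as was one 7.37 kb after it, held at P0 only. *Sox2* was the 1 gene of the 7 with more peaks in E16.5 than in E13.5 heterozygous cells, 5 against 3; the knockout lists held 3 at both stages. The whole *Sox2* window lies within the long non-coding gene *Sox2ot*.

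*Klf4* (gene ID 16600, chromosome 4, 55527137 to 55532475) varied least. Its start peak and a peak 17.5 kb after the start stood in all 6 lists, and the only other peak, 10.9 kb after the start, was at P0. The *Klf4* start peak also lies within 1000 bp of the start of another gene, *Gm12506*. *Klf4* had 2 peaks in each list except P0, with 3. *Utf1* (gene ID 22286, chromosome 7, 139943856 to 139945112) had a start peak in every list except P3. The peaks covered 207 to 250 of the 250 bases of the printed *Utf1* stretch in those 5 lists and 0 at P3. A region 12.9 kb before the *Utf1* start was held by both E13.5 lists only, with peaks at 139930771 to 139931271 (heterozygous) and 139930589 to 139931089 (knockout).

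*Dppa3* (gene ID 73708, chromosome 6, 122626424 to 122630271) lies 77.2 kb from *Nanog* on the same chromosome, so that no peak fell in both windows. Its lower outer end had a peak in the E13.5 heterozygous list (122626157 to 122626657) and at P0 (122626198 to 122626698), and in no other list. A peak 1.8 kb below that end was held by both E13.5 lists, at 122624364 to 122624864 (heterozygous) and 122624380 to 122624880 (knockout), and by no later list. With a window of 2000 bp this peak counts as well, and the E13.5 genotypes then no longer differ at *Dppa3*. At E16.5 the 1 peak left in the window, in both genotypes, was 7.08 kb above the lower end, in the region held by all 6 lists. P0 added a peak within the gene (122627500 to 122628000) and P3 one 14.2 kb above the lower end.

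*Lin28a* (gene ID 83557, chromosome 4, 134003330 to 134019196) had a start peak at E13.5 only, at 134018658 to 134019158 in heterozygous and 134018871 to 134019371 in knockout cells. The annotated start used, 134018816, lies inside the gene bounds, and so do the bases printed before it. The heterozygous peak covered all 250 bases of the printed *Lin28a* stretch and the knockout peak 196, and no later list had a peak there. Neither P0 nor P3 regained it, although P0 had a peak within the gene, 6.77 kb after the start. A peak 17.3 kb before the start was held by every list except E16.5 heterozygous. The peak 17.8 kb after the start, in all 6 lists, lay at the start of the neighbouring gene *Dhdds*.

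From E13.5 to E16.5 the windows of the 7 genes lost peaks while the lists as a whole grew. The windows held 24 peaks in E13.5 heterozygous, 21 in E13.5 knockout, 14 in E16.5 heterozygous, 13 in E16.5 knockout, 22 at P0 and 15 at P3. Per 10000 peaks of the list this was 5.93, 5.31, 2.61, 2.28, 3.27 and 3.35. In heterozygous cells 5 of the 7 genes had fewer peaks at E16.5 than at E13.5 and 1 had more, against 28.1% with fewer and 28.2% with more among all protein-coding gene windows. In knockout cells 5 had fewer and 0 more, against 24.6% and 30.9%. The 7 windows started higher at E13.5, with a mean of 3.43 peaks in heterozygous cells against 2.3 over all protein-coding gene windows. In knockout cells it was 3 against 2.31. Windows with equal starting counts were not compared. From E16.5 to P0 no gene had fewer peaks and 5 had more, in comparison with either E16.5 list. Of all windows, 16.7% had fewer and 33.8% more against the heterozygous list, and 19.5% and 30.3% against the knockout list. From P0 to P3, where the list shortened, 5 had fewer and 0 more (40.2% and 9.23% of all windows).

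Peak by peak, 16 of the 24 E13.5 heterozygous peaks had no overlap at E16.5 in the same genotype, against 43.3% of all peaks of that list. The share kept was 33.3% (exact 95% binomial interval 15.6 to 55.3, covering counting error over peaks only), and 56.7% of all peaks of the list and 61.4% of those in protein-coding gene windows were kept. In knockout cells 11 of 21 had no overlap, against 39.4%, and 47.6% were kept (25.7 to 70.2). The shares for all peaks, 60.6%, and for protein-coding gene windows, 64.5%, lay inside that interval. These intervals treat peaks as independent, which peaks of the same window may not be, and are no test. Windows of 50 kb on each side kept 47.6% in heterozygous and 56.1% in knockout cells, nearer to the shares of the whole lists. Later steps lay close to the whole lists. From E16.5 heterozygous to P0, 3 of 14 peaks were not found (22% of all peaks), and from E16.5 knockout to P0, 2 of 13 (23.2%). From P0 to P3, 10 of 22 were not found (44.3%). The share kept in this last step was 54.5% (32.2 to 75.6). For P0 peaks in protein-coding gene windows it was higher, 65.6%, but lay inside that interval.

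Read backwards, the peaks of a later list that were missing from the earlier one show what was added. Of the E16.5 peaks, 6 of 14 in heterozygous cells (57.3% of all peaks of that list) and 3 of 13 in knockout cells (58%) had no overlap at E13.5. Set against peaks in protein-coding gene windows, the heterozygous share was not low. In heterozygous cells 57.1% of the E16.5 peaks did overlap an E13.5 peak, close to the 59.5% in those windows. In knockout cells 76.9% did (interval 46.2 to 95), against 58.5%, which lay inside the interval. Of the 22 P0 peaks, 11 were missing from each E16.5 list (37.7% of all P0 peaks were missing from the heterozygous and 34.8% from the knockout list). Of the 15 P3 peaks, 3 were not at P0 (16.4%). Between the ends of the series, 15 of the 24 E13.5 heterozygous peaks (43.4%) and 12 of the 21 E13.5 knockout peaks (42.7%) had no overlap at P3.

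**Figure D2:**
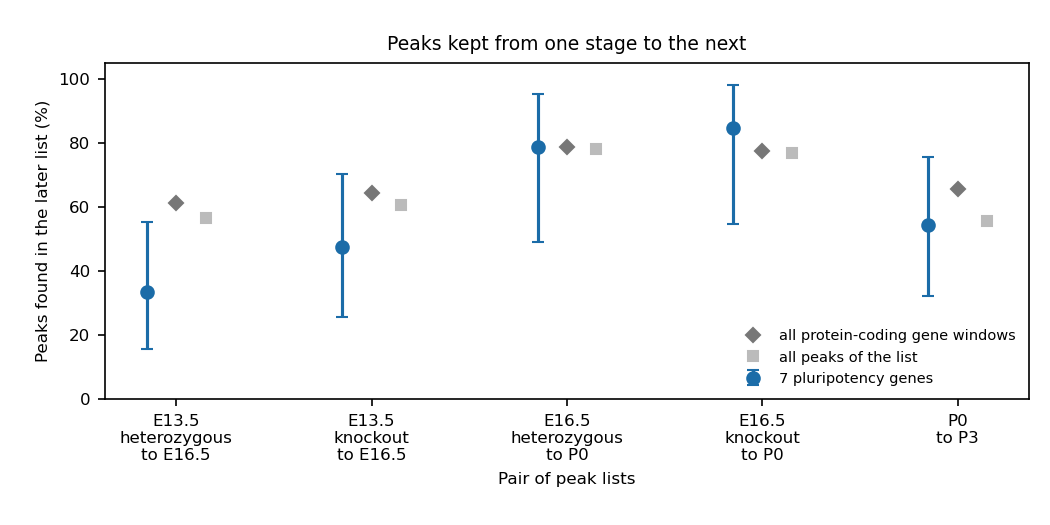
Share of peaks, in percent, that overlapped a peak of the later list, for each pair of lists on the horizontal axis. Circles are peaks in the windows of the 7 genes with exact 95% binomial intervals (counting error only), diamonds peaks in all protein-coding gene windows, squares all peaks of the list. The circle stands at 33.3% for E13.5 heterozygous to E16.5, where the square stands at 56.7%, and circle and square are within 8 percentage points of each other from E16.5 to P0 and from P0 to P3.

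Taking both genotypes together, 21 regions of the 7 genes were held by both E13.5 lists. Of these, 11 were in neither E16.5 list, against 28.6% of the 31856 such regions of the genome. In both E16.5 lists were 8 (62.4% of all), in the E16.5 knockout list only 2 (5.99%) and in the E16.5 heterozygous list only 0 (2.99%). Of the 11, 9 were absent from P0 and P3 as well, and 2 overlapped a later peak (9.52% of the 21, and 5.35% of all such regions): those 4.76 kb before *Nanog* and 10.2 kb before *Sox2*. At *Sox2* this rests on an overlap of 150 bp, which a reciprocal overlap of 50% would not count. The 9 regions made up 23.1% of the 39 (interval 11.1 to 39.3), and 6.93% of all regions followed this pattern, or 8.5% of those in protein-coding gene windows. Within 10 kb of the genes it was 4 of 26 regions (15.4%), and within 50 kb 13 of 75 (17.3%).

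The 9 regions were spread over 6 of the 7 genes: 2 each at *Pou5f1*, *Nanog* and *Dppa3*, 1 each at *Sox2*, *Utf1* and *Lin28a*, and 0 at *Klf4*. One of them was a gene start, that of *Lin28a*, and 8 lay 1.8 to 20.2 kb from the start, outside the member genes. All 6 lists held 7 regions, 17.9% of the 39, against 16.3% of all regions and 24.9% of those in protein-coding gene windows. Of these 7, 2 were the starts of *Sox2* and *Klf4*, and 2 lay at the starts of other genes. The other three, near *Nanog*, *Klf4* and *Dppa3*, lay at no annotated start. The later lists alone held 15 regions, of which 1, at *Pou5f1*, was a member's start.

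**Figure D3:**
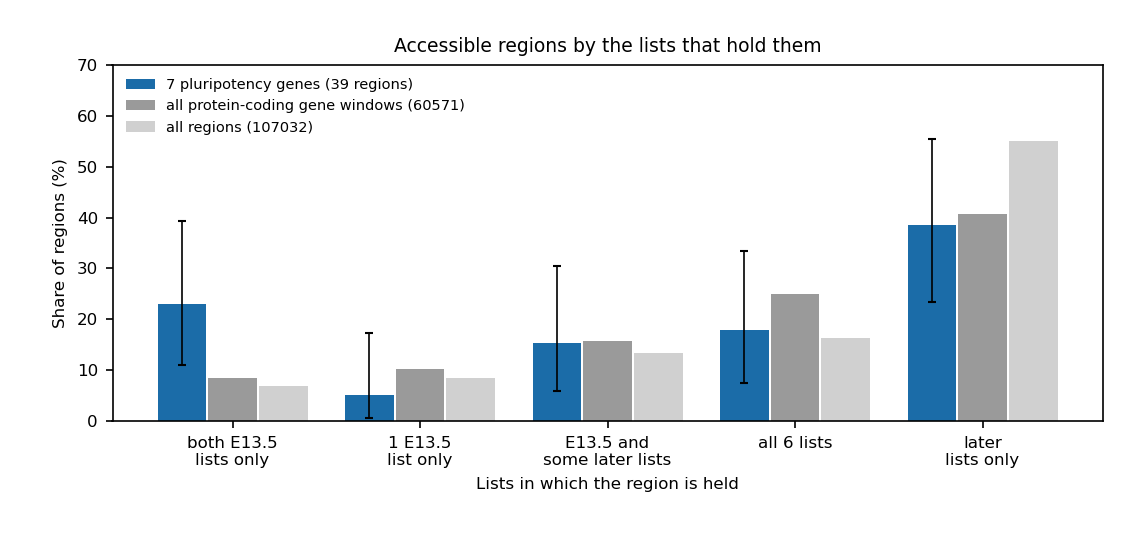
Share of accessible regions, in percent, by the lists that held them. Blue bars are the 39 regions of the 7 genes with exact 95% binomial intervals (counting error only), dark grey bars the 60571 regions in protein-coding gene windows, light grey bars all 107032 regions. Regions in both E13.5 lists only make up 23.1%, 8.5% and 6.93% of the 3 sets; for regions in later lists only the shares are 38.5%, 40.6% and 55%.

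Counted by gene start, 3 of the 7 genes lost their start peak from E13.5 to E16.5 in heterozygous cells (*Nanog*, *Dppa3* and *Lin28a*) and *Pou5f1* gained one. Of the 17491 genes 2.68% lost and 3.61% gained one in this comparison. In knockout cells *Lin28a* lost and *Pou5f1* gained a start peak (2.38% and 3.78% of all genes). From E16.5 heterozygous to P0 *Dppa3* gained one and none lost one (4.05% and 1.7%), and from E16.5 knockout to P0 *Dppa3* gained one and *Nanog* lost one (3.26% and 1.77%). From P0 to P3, *Pou5f1*, *Dppa3* and *Utf1* lost theirs (4.78% of all genes) and none gained one (0.932%), which left *Sox2* and *Klf4*.

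Genotypes could be set against each other before birth only. At E13.5, 21 regions were held by both genotypes, 3 by heterozygous cells only (21.3% of all heterozygous peaks had no overlap in the knockout list) and 0 by knockout cells only (19.6%). All 21 knockout peaks were thus found in heterozygous cells (100%, exact 95% binomial interval 83.9 to 100). The 3 were the *Dppa3* end peak, a peak 8.83 kb below *Dppa3* (122617344 to 122617844) and a peak 20.2 kb after the *Utf1* start (139963800 to 139964300). At a gene start, *Dppa3* was thus the 1 gene with a difference (1.18% of all genes had a start peak in the heterozygous list only). Regions in both lists were centred within a median of 16 bp of each other.

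At E16.5, 11 regions were held by both genotypes, 3 by heterozygous cells only (18.6% of all heterozygous peaks) and 2 by knockout cells only (23.5% of all knockout peaks). Heterozygous cells alone held a peak within *Sox2* (34650862 to 34651362), one 14.4 kb after the *Sox2* start (34664194 to 34664694) and one 14.3 kb after the *Utf1* start (139957878 to 139958378). Knockout cells alone held the *Nanog* start peak and the peak 17.3 kb before *Lin28a* (134035865 to 134036365), both of which were also in both E13.5 lists. A start peak in the E16.5 knockout list only was found for 2.39% of all genes. As shares of the peaks in the windows, 12.5% and 0% (E13.5 heterozygous and knockout) and 21.4% and 15.4% (E16.5) were private to a genotype, above the whole list for E16.5 heterozygous cells and below it for the other three. Each difference is the presence of 1 peak in 1 list. Whether they exceed differences between replicates could not be measured.

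The wider network was followed in 31 further genes: 21 of naive pluripotency, 5 of the primed state that follows it, 2 partners of the LIN28 proteins and 3 of the Nodal signalling pathway. Of these, 18 have an annotated start in the table, and the other 13 were scored at both outer ends. A start peak stood in all 6 lists at 14 of the 31, among them *Esrrb*, *Tfcp2l1*, *Zfp42* and *Klf2*, transcription factors of the naive state, and in none at *Lefty2*, which encodes a Nodal inhibitor. The other 16 varied. Of all genes with an annotated start 55% had a start peak in all 6 lists and 32.2% in none, and 12.8% varied. From E13.5 to E16.5, 6 lost and 3 gained a start peak in heterozygous cells (2.68% and 3.61% of all genes), and 3 lost and 3 gained one in knockout cells (2.38% and 3.78%). *Nr5a2* and *Eras* gained theirs in both genotypes, with *Gdf3* (at its lower outer end, which may not be its start) in heterozygous and *Tcl1* in knockout cells. *Prdm14* and *Lefty1* lost theirs in both, with *L1td1* in knockout cells. From P0 to P3, 4 lost (*Fgf4*, *Trim71*, *Dppa4* and *Nodal*) and 0 gained one (4.78% and 0.932% of all genes). Of the 31, those with a start peak numbered 22 (E13.5 heterozygous), 22 (E13.5 knockout), 19 (E16.5 heterozygous), 22 (E16.5 knockout), 24 (P0) and 20 (P3). The number thus rose from either E16.5 list to P0. Among all genes with an annotated start the shares were 60.5%, 60.9%, 61.5%, 62.3%, 63.8% and 60%.

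Some of the 31 shared the exact 6-list pattern of a pluripotency gene that varied. *Prdm14*, a transcription factor of germ cell precursors, and *Lefty1*, another Nodal inhibitor, had a start peak in both E13.5 lists and in none later, as *Lin28a* did, a pattern found for 0.6% of all genes. *Otx2*, a transcription factor of the primed state, shared the *Nanog* pattern (0.126%). *Fgf4*, a growth factor gene, and *Trim71*, which encodes an RNA-binding ubiquitin ligase and is a let-7 target, shared the *Utf1* pattern (1.07%). None of the 31 shared the pattern of *Pou5f1* (0.577%) or *Dppa3* (0.0686%). *Prdm14*, *Lefty1* and *Dppa3*, and of the genes named below *Gdf3* and *Sall4*, were scored at both outer ends. The shares of all genes rest on annotated starts only, so for these genes the measures differ. The likeness is a match in 6 of 6 lists and says nothing of function.

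Between genotypes, start peaks of the 31 genes differed at E13.5 for *Lin28b*, the paralog of *Lin28a* (heterozygous only; 1.18% of all genes), and *L1td1*, which encodes an RNA-binding protein of stem cells (knockout only; 1.57%). At E16.5 *Gdf3*, a growth factor gene scored at both outer ends, had an end peak in heterozygous cells only (1.53%). That peak was at the lower end (122605403), whereas P0 and P3 held peaks at the upper end (122610087). Which end is the start was not given, so this may not be a difference at the *Gdf3* start. The zinc finger gene *Sall4*, the AKT coactivator gene *Tcl1*, *Otx2* and the signalling ligand gene *Nodal* had one in knockout cells only (2.39%). *Nodal* and *Sall4* had also had theirs in both E13.5 lists, as *Otx2* and *Nanog* had.

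**Figure D4:**
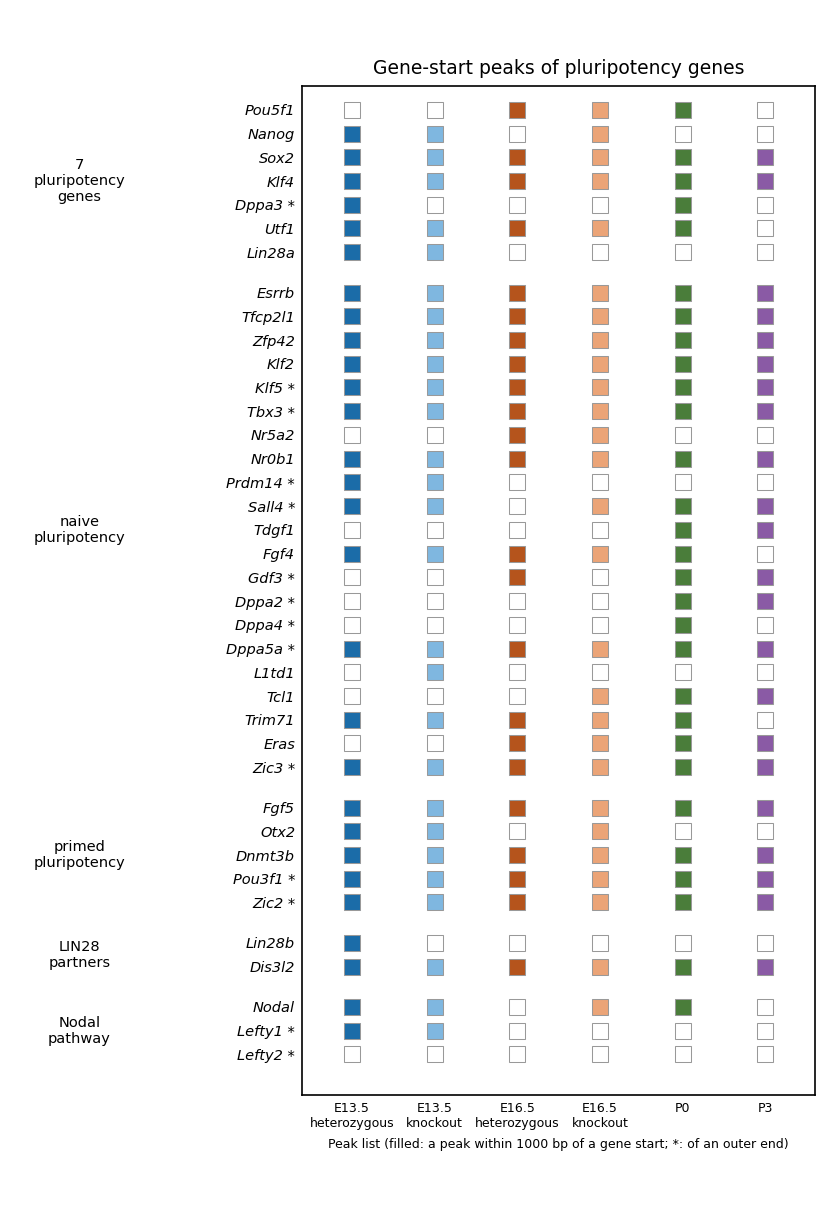
Presence of a gene-start peak (filled squares) in each of the 6 lists (columns) for the 7 pluripotency genes and 31 further genes of the network (rows). An asterisk marks genes scored at both outer ends. Sox2 and Klf4 are filled in all 6 columns, as are 14 of the 31 further genes; Lin28a, Prdm14 and Lefty1 are filled in the E13.5 columns only.

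Markers of germ cells and of other testis cells were scored in the same way. Of 6 germ cell genes, 4 (*Ddx4*, *Dazl*, *Mael* and *Dnd1*) had a start peak in all lists, *Nanos3* in E13.5 knockout cells only and *Tdrd1* in none. Of 16 genes of Sertoli, Leydig, endothelial cells and macrophages, 13 had none in any list, *Amh*, *Sox9*, *Star*, *Insl3*, *Pecam1* and *Csf1r* among them. *Cyp11a1* and *Kdr* had one in all 6 lists and *Wt1* in all but P3. The 16 markers of other cells were thus scored alike at E13.5, E16.5 and P0 and differed by *Wt1* at P3; their part in the results was not tested. An open gene start is no measure of expression.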

How the data were processed

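ATAC-seq was done on gonocytes of 16 samples in 8 groups. The authors deposited 1 list of peak positions per group, in 3 columns and without heights or scores; peaks are 501 bp wide but for 0 to 3 per list. Per the submitters' processing notes the build is mm10 (GRCm38) and the tools include bcl2fastq 2.20, cutadapt 1.18, Bowtie2 2.3.4.1, deepTools 3.5.0 and HOMER 4.10, with no role given. The peak threshold, pooling of samples and duplicate removal are not given in the sources used here. A fixed width hides differences in peak breadth. Read depth is unknown, so the precision of each list is too.

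The P0 lists and the P3 lists of both genotypes were identical in every row and each pair was used as 1 list with no genotype. Gene bounds and starts came from RefSeq tables of GRCm38.p6. Peaks were shared when they overlapped by at least 1 bp. All 7 genes are named; of the 31 further genes those with a pattern like a member's, a genotype difference, or E13.5 peaks only were named, and *Esrrb*, *Tfcp2l1*, *Zfp42*, *Klf2*, *Lefty2*, *Nr5a2*, *Eras* and *Dppa4* were picked after their values were seen. The genes, lists and windows were chosen with earlier results of these data known. Overlaps were computed in Python 3.11.15, matched bedtools 2.31.1 in 7 comparisons and were tested on simulated data, where all 4000 and 6000 private peaks were found. Alternatives were other windows, flanks and overlap rules.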

Additional observations from a re-analysis of the deposited data

How the results depend on the processing

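No paired analysis was possible because no file holds values of individual samples; leaving out replicates and a stricter peak threshold were not possible for the same reason and for want of scores. Of 81 recomputed values, 68 stayed within 1.5 times the reported count or inside the reported interval and 13 moved. All 13 came from the window size, which changes the number of peaks by construction. With 50 kb on each side the windows held 42, 41, 34, 30, 41 and 30 peaks (E13.5 heterozygous, E13.5 knockout, E16.5 heterozygous, E16.5 knockout, P0, P3). Peaks in 1 genotype only then numbered, for heterozygous and knockout cells, 5 and 3 in the E13.5 lists, 8 and 4 in the E16.5 lists. With 10 kb the P3 list held 8 peaks, and at E16.5 there was 1 peak in heterozygous cells only and 1 in knockout cells only. Reciprocal overlap of 50%, a distance of 500 bp and midpoints in the window moved none of the values recomputed with them. Leaving out peaks at the start of another gene, an alternative chosen after seeing the data, moved none either. It also left out the start peaks of *Klf4* and *Pou5f1*, which lie within 1000 bp of the starts of *Gm12506* and *Gm32362*. Without all these peaks, the constant *Klf4* start peak included, the share kept from E13.5 to E16.5 was lower, 23.8% in heterozygous and 38.9% in knockout cells. The 5 shares kept stayed inside their intervals under every alternative, but these intervals are wide because the windows hold few peaks.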

Other observations

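Some peaks in the windows lie in neighbouring genes. The 2 regions 17.7 and 16.6 kb below *Dppa3* are inside *Gdf3* (chromosome 6, 122605403 to 122610087), which encodes a growth factor of the TGF-beta family and belongs to the same gene cluster. They had opposite timing: the first was held by both E13.5 lists only and the other by the P0 and P3 lists only. Next to *Utf1*, the region 14.3 kb after its start began 117 bp beyond the hairpin of *Mir202*, a microRNA gene known from gonads, and was held by the E16.5 heterozygous and P3 lists, a pattern found for 0.205% of all regions. The region 6.43 kb after the *Utf1* start, held by P0 and P3 only, lay at the start of the non-coding RNA gene *Gm16201*.

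The P0 list alone held 5 of the 39 regions (12.9% of all regions were in this list alone), at *Sox2*, *Klf4*, *Dppa3*, *Utf1* and *Lin28a*. Of these, the *Dppa3* and *Lin28a* peaks were inside the gene, and the *Utf1* peak, 3 kb before its start, was inside *Kndc1*.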
